A study of Homo sapiens with 12 samples.

Results

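The genes described here encode the enzymes that build and trim heparan sulfate, and syndecans, the membrane proteins that carry it. The rule names 10 genes: the sulfatases SULF1 and SULF2, the chain enzymes EXT1, EXT2, NDST1, NDST2, HS2ST1 and HS3ST1, and the syndecans SDC1 and SDC4. A gene was measured where the platform annotation pairs a probe set, the group of probes that reports 1 transcript, with its symbol alone. That held for 8 of the 10 genes, of 18417 such genes in all, and each of the 8 had 1 probe set. The only probe set listing SDC4 lists a further gene, and NDST2 was not analysed here. The genes were chosen by their role, with earlier results of these data known. SULF1 was selected on its measured difference between U-H01 arrays. Its values in comparisons that use U-H01 arrays are therefore a description and carry no test.

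Heparan sulfate is a long, negatively charged sugar chain attached to core proteins at the cell surface and in the matrix. The chain is polymerised in the Golgi by the EXT1 and EXT2 proteins, then N-sulfated by NDST enzymes and O-sulfated at set positions by HS2ST1, HS3ST1 and related enzymes. After it reaches the surface, SULF1 and SULF2 remove 6-O-sulfate groups. The sulfation pattern governs the binding of growth factors, chemokines and cytokines, and SDC1, also known as CD138, is the classical surface marker of plasma cells and multiple myeloma.

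RNA was hybridised to 12 single-colour expression arrays, 8 of the Hodgkin lymphoma line U-H01 and 4 of HBL-1, established from a diffuse large B-cell lymphoma and used as a model of its activated B-cell-like class. All cells had been transduced with doxycycline-inducible short hairpin RNAs (shRNAs), for which the labels' protocols name RelB and cRel, 2 subunits of the transcription factor NF-kB, as targets. In each transduced population a part received doxycycline to switch the hairpin on and a part did not. The groups are U-H01 labelled induced (4 arrays), U-H01 uninduced (4 arrays), HBL-1 induced (2 arrays) and HBL-1 uninduced (2 arrays). U-H01 comprised 2 populations, B1 and B2, and HBL-1 comprised 1, C, each taken at 2 time points. The labels do not state which hairpin each population carries. Values are deposited log2 expression levels, so a difference of 1 is a 2-fold difference.

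The U-H01 arrays labelled induced stood apart from the uninduced ones. Over 19460 probe sets with 1 symbol, arrays within a group correlated at 0.991 to 0.996, and induced with uninduced HBL-1 arrays at 0.992 to 0.994. U-H01 arrays labelled induced correlated with uninduced U-H01 arrays at only 0.893 to 0.910 and with the HBL-1 arrays at 0.905 to 0.917. Over all genes, 22.4% were higher and 23.5% lower in U-H01 arrays labelled induced than in uninduced ones. Of 6 measured B-cell markers, 4 were higher and 0 were lower; PAX5, the B-lineage factor, averaged 11.8 in them and 9.05 in uninduced ones, while MS4A1, the gene of CD20, averaged 4.52 and 4.49. Of 7 Hodgkin Reed-Sternberg markers, 2 were higher and 4 lower: TNFRSF8, the gene of CD30, averaged 11.6 in arrays labelled induced and 6.89 in uninduced ones, while CD274, the gene of PD-L1, averaged 4.11 and 9.91. REL, the gene of cRel, averaged 10.2 ± 0.16 in U-H01 arrays labelled induced and 9.96 ± 0.08 in uninduced ones (SD, n = 4 each; adjusted p = 0.0716 by limma). RELB averaged 7.25 ± 0.11 in U-H01 arrays labelled induced and 7.40 ± 0.13 in uninduced ones (SD, n = 4 each), with an adjusted p of 0.209 from limma. In HBL-1, REL averaged 9.25 ± 0.16 in induced and 9.74 ± 0.06 in uninduced arrays (SD, n = 2 each; adjusted p = 0.121), and RELB 7.48 ± 0.12 and 7.67 ± 0.0013 (adjusted p = 0.744). Neither target passed as lower with all 12 arrays in the fit. In U-H01 this fit pools B1 and B2, whose hairpins are not stated, and neither target was tested within a single population. By pair, RELB differed by -0.006 and -0.12 in B1 and by -0.15 and -0.31 in B2. REL differed by 0.08 and 0.33 in the B1 pairs and by 0.03 and 0.38 in the B2 pairs. REL in HBL-1, at a difference of -0.49, passed as lower with HBL-1 fitted alone (adjusted p = 0.0055 by limma) and without the 4 U-H01 arrays labelled induced, an alternative chosen after seeing the data (0.0477). With any 1 array left out it did not pass, at adjusted p of 0.0982 to 0.737. REL in U-H01, at 0.20, passed as higher with trend and robust options (0.0428) and without labelled induced replicate 3 (0.26, adjusted p = 0.0398). The directions below rest on the labels, and whether the U-H01 arrays of both labels hold the same cells was not tested.

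Promoter sequences show what stands upstream of genes of interest here. RefSeq windows on GRCh38.p14, from 250 bases before to 50 after a gene start, were found for 6 of the 8 measured genes, 12 windows in all. They were searched on both strands for the NF-kB consensus, the site bound by the factor whose subunits the hairpins target, and for the GC box GGGCGG, a common promoter element. The 2 motifs did not overlap in the sequences printed. HS2ST1 (chr1:86914385-86914684, plus strand) and NDST1 (chr5:150497529-150497828, plus strand) are shown because they had the largest rise and fall in U-H01 among genes with a window, with GC boxes in capitals. SDC1 (chr2:20225081-20225380, minus strand) is shown because it held the only NF-kB consensus match, in capitals; a GC box in it is left in lower case.
HS2ST1: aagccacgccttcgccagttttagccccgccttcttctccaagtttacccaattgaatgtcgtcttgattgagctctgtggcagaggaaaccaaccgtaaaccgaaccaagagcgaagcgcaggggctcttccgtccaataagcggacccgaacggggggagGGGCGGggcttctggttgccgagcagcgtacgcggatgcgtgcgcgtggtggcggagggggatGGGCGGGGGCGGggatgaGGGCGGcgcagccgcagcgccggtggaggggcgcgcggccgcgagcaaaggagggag
NDST1: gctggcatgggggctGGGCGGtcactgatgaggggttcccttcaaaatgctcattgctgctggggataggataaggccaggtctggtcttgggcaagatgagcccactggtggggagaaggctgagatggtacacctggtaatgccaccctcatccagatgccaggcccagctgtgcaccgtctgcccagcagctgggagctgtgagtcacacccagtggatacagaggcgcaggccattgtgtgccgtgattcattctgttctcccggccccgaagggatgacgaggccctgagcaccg
SDC1: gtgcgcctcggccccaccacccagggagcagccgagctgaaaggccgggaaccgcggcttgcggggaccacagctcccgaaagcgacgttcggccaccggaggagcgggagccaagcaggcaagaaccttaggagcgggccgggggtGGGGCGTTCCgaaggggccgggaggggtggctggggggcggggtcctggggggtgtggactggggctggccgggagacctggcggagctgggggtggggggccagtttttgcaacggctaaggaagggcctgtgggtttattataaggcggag

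The NF-kB consensus was found in 1 of the 12 windows, the one printed for SDC1, where the match GGGGCGTTCC begins at position -103 from the gene start. It occurs in 11.3% of all 35116 windows of this length. GC boxes were found in 9 of the 12 windows and in at least 1 window of each of the 6 genes, against 45% of all windows. The HS2ST1 window holds 4 of them and the NDST1 window 1.

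SULF1 had the largest difference of the 8 genes in U-H01 and was picked for it. Its levels were 3.65, 3.71, 3.74 and 3.84 on the arrays labelled induced, against 11.06, 11.02, 10.58 and 10.57 on the uninduced ones. The groups lie far apart, and the lower group sits below the lower quartile of every array, which ran from 4.18 to 4.28. The log2 difference was -7.07 ± 0.12 (SE), a measured 135-fold, which may understate the difference where the low level is background. HBL-1 had levels as low, at 3.88 and 3.97 on induced and 4.05 and 3.76 on uninduced arrays. High SULF1 was thus seen on 4 of the 12 arrays, those of uninduced U-H01, where B1, at 11.06 and 11.02, was above B2, at 10.58 and 10.57. In bulk RNA, fewer cells of a type and less RNA per cell cannot be told apart.

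SULF1 is also made by fibroblasts and endothelium, so markers of these cells were read beside it. Of 6 stromal markers, 1, PDGFRB, was higher and 0 were lower in U-H01 arrays labelled induced, and the mean log2 level of the list ran from 4.99 to 5.08 in them and from 4.89 to 5.01 in uninduced arrays. The matrix proteoglycan genes DCN and LUM averaged 3.32 and 3.24 in arrays labelled induced and 3.24 and 3.31 in uninduced ones, below the array lower quartiles. Of 4 endothelial markers, 1, PECAM1, was lower at 5.04 against 10.6, a gene that leukocytes express as well. CDH5, VWF and KDR averaged 4.58, 4.38 and 4.13 in arrays labelled induced and 4.52, 4.38 and 4.16 in uninduced arrays, with adjusted p of 0.609, 0.970 and 0.818 from limma.

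SULF2, the other extracellular sulfatase, was low in U-H01 with either label and higher in HBL-1. It had levels of 5.27, 5.37, 5.07 and 4.98 on U-H01 arrays labelled induced and 5.19, 4.92, 5.02 and 5.31 on uninduced ones. These groups overlap, and the difference of 0.06 ± 0.18 (SE) did not pass (adjusted p = 0.820 by limma, 95% interval -0.33 to 0.46). In HBL-1 the levels were 6.10 and 7.35 on induced and 7.03 and 6.88 on uninduced arrays. The induced arrays lie on both sides of the uninduced ones, so the difference of -0.23 ± 0.26 (SE, adjusted p = 0.886) had opposite signs in the 2 pairs. The SULF1 difference between U-H01 labels, described above, therefore had no counterpart of its size in SULF2.

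**Figure D1:**
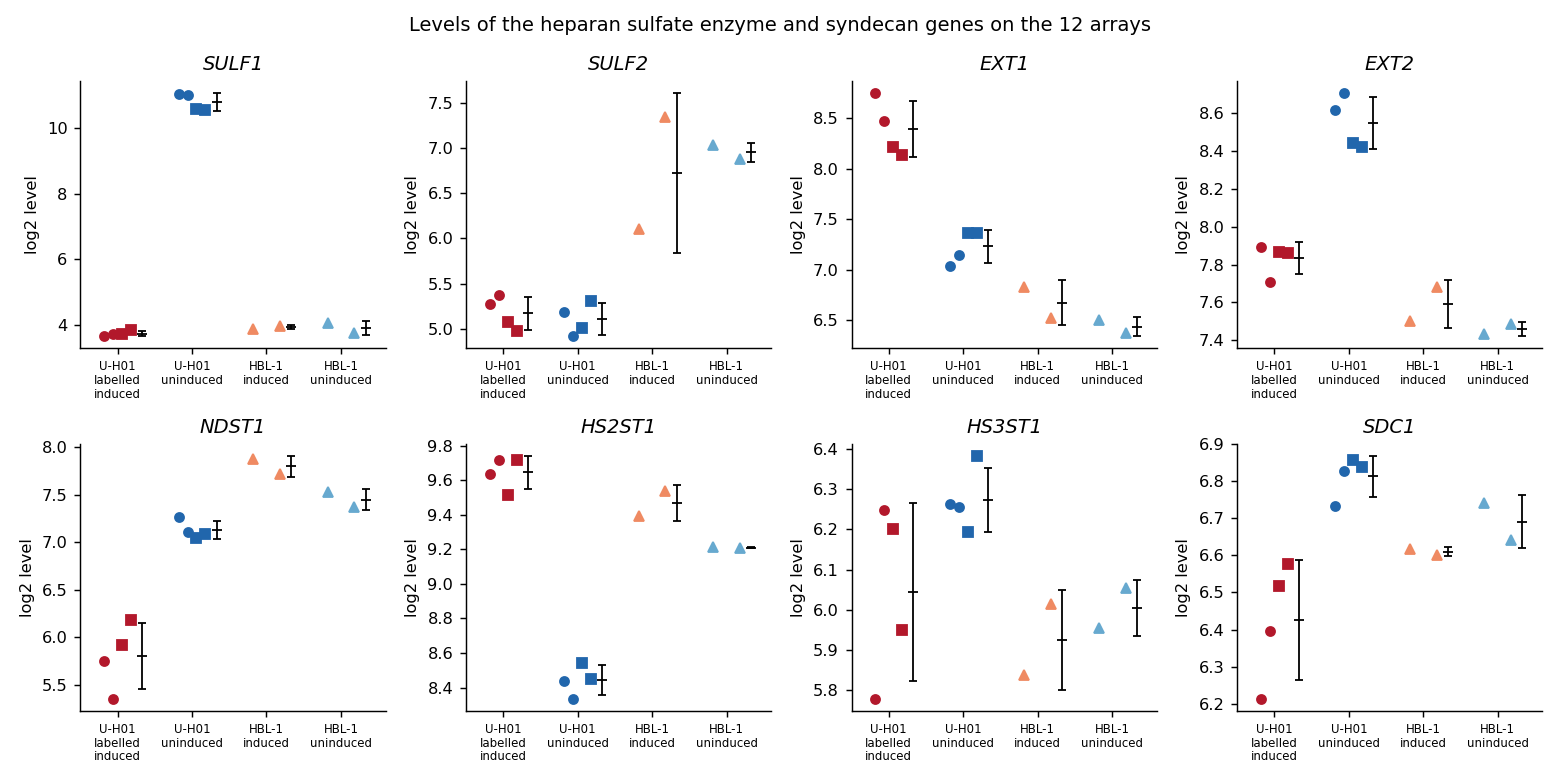
Deposited log2 level (vertical axis, a different range in each panel) of the 8 measured genes on each array, by group; circles are population B1, squares B2 and triangles C, and the black bar is the group mean with its SD (n = 4, 4, 2 and 2). SULF1 is near 11 on the 4 uninduced U-H01 arrays and under 4.1 on the other 8.

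Of the 7 other genes, 5 differed between the U-H01 labels, 2 rising and 3 falling. Over all genes tested, 45.8% passed, 22.4% higher and 23.5% lower, so a gene passing here is common. HS2ST1 and EXT1 were over 2-fold higher in the arrays labelled induced, NDST1 was over 2-fold lower, and EXT2 and SDC1 were lower by less. The median of the 7 differences was -0.23, against 0.03 over all genes. Passing means an adjusted p under 0.05 in a linear model over all 12 arrays.

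EXT1 and EXT2 encode the 2 subunits of the polymerase that elongates the chain, and they differed in opposite directions. EXT1 was at 8.75, 8.47, 8.22 and 8.14 on arrays labelled induced, against 7.04, 7.15, 7.37 and 7.37 on uninduced ones, with no overlap. Its difference was 1.16 ± 0.13 (SE) or 2.24-fold (adjusted p = 9.2e-06 by limma), positive in all 4 pairs. EXT2 was at 7.89, 7.71, 7.87 and 7.86 on arrays labelled induced, against 8.61, 8.70, 8.44 and 8.42 on uninduced ones. Again the groups did not overlap, and the difference of -0.71 ± 0.09 (SE), 1.64-fold lower, was negative in every pair (adjusted p = 1.9e-05).

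NDST1, a dual enzyme that removes the acetyl group of N-acetylglucosamine and puts a sulfate in its place, was lower. Levels were 5.75, 5.35, 5.92 and 6.19 on arrays labelled induced and 7.27, 7.11, 7.05 and 7.09 on uninduced ones. All arrays labelled induced lie below all uninduced ones, with a difference of -1.33 ± 0.13 (SE), or 2.51-fold (adjusted p = 3.2e-06 by limma). The arrays labelled induced varied more, with an SD of 0.35 against 0.09. HS2ST1, which sulfates position 2 of the uronic acid, was higher. It read 9.63, 9.72, 9.52 and 9.72 on arrays labelled induced and 8.44, 8.33, 8.54 and 8.45 on uninduced ones, a difference of 1.20 ± 0.08 (SE) or 2.30-fold (adjusted p = 1.0e-07).

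HS3ST1, which adds the rare 3-O-sulfate needed to bind antithrombin, read 5.78, 6.25, 6.20 and 5.95 on arrays labelled induced and 6.26, 6.26, 6.19 and 6.38 on uninduced ones. The groups overlap and the difference of -0.23 ± 0.10 (SE) did not pass (adjusted p = 0.0956 by limma). It passed without U-H01 labelled induced replicate 2 (-0.32, adjusted p = 0.0278) and without replicate 3 of that group (-0.32, adjusted p = 0.0259). Without replicate 1 of that group it shrank to -0.13 (adjusted p = 0.335).

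SDC1 was lower in the arrays labelled induced by a small amount. Its levels were 6.21, 6.40, 6.52 and 6.58 on arrays labelled induced, against 6.73, 6.83, 6.86 and 6.84 on uninduced ones, without overlap. The difference was -0.39 ± 0.08 (SE) or 1.31-fold lower (adjusted p = 0.0012 by limma), and all 4 pairs agreed in sign. Most other plasma-cell genes differed the other way. Of 7 markers measured, 6 were higher in the arrays labelled induced and 1, JCHAIN, was lower, and the list's mean log2 level ran from 9.23 to 9.68 in them and from 7.32 to 7.57 in uninduced arrays. CD38 averaged 11.2 in arrays labelled induced and 4.58 in uninduced ones, and PRDM1, the plasma-cell factor, 10.6 and 7.28. The part of these markers in the SDC1 difference was not tested.

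Both U-H01 populations showed the same 5 calls, where 39.7% of all genes passed in B1 and 37.6% in B2. EXT1 differed by 1.52 ± 0.12 in B1 and 0.81 ± 0.12 in B2 (SE), NDST1 by -1.63 ± 0.14 and -1.02 ± 0.14, and HS2ST1 by 1.29 and 1.12. EXT2 differed by -0.86 and -0.57, and SDC1 by -0.47 and -0.30, with the smallest margin for SDC1 in B2 (adjusted p = 0.0443 by limma). SULF1 differed by -7.36 in B1 and -6.79 in B2. The size of the difference was tested between B2 and B1, where 0.608% of all genes passed. None of the 7 genes passed by limma (0 calls), and 2 had an unadjusted p under 0.05, as 11.5% of all genes did. These were EXT1, at -0.71 with an interval of -1.08 to -0.34 (adjusted p = 0.0946), and NDST1, at 0.62 with an interval of 0.17 to 1.06 (adjusted p = 0.233).

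**Figure D2:**
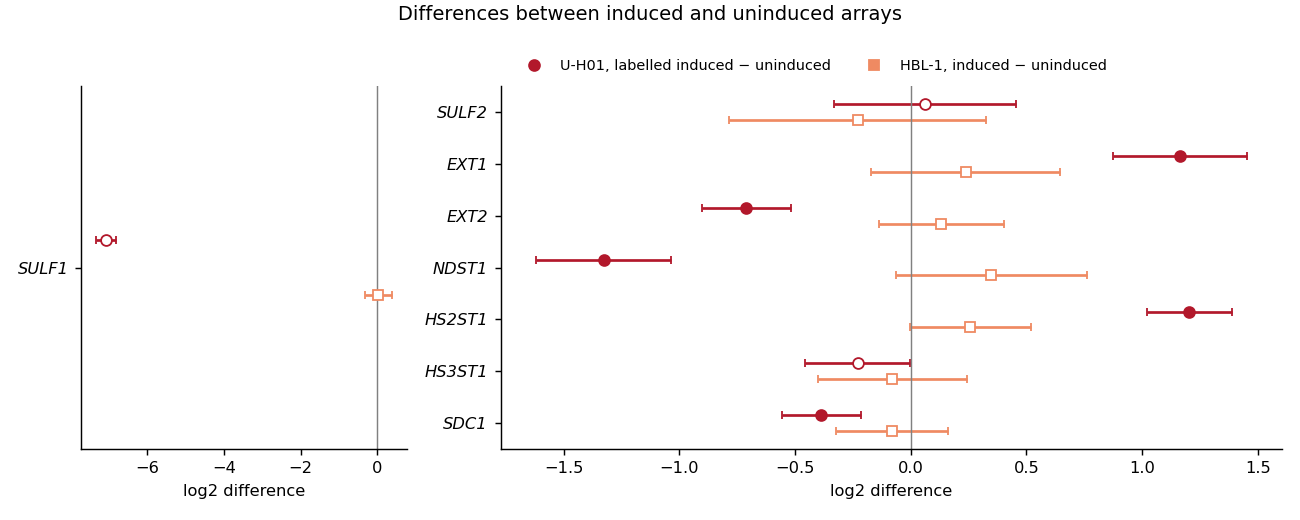
Log2 difference (horizontal axis) with its 95% interval for each gene, U-H01 labelled induced minus uninduced as circles and HBL-1 induced minus uninduced as squares; filled symbols passed the test, and SULF1 in U-H01 was not tested. In U-H01, 5 of the 7 other genes passed, and in HBL-1 0 of 8.

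In HBL-1, 0 of the 8 genes passed between induced and uninduced arrays by limma, where 0.608% of all genes passed. At an unadjusted p under 0.05 there were again 0 of the 8, against 9.81% of all genes. SULF1 differed by 0.02 ± 0.17 (SE; 95% interval -0.34 to 0.38; adjusted p = 0.987), with both groups at the low level given above. HS2ST1 came nearest, at 9.39 and 9.54 on induced and 9.21 and 9.21 on uninduced arrays. These groups do not overlap, and neither do those of EXT1, EXT2, NDST1 and SDC1. The share of all genes without overlap in HBL-1 was not counted, so the lack of overlap is a description only. The HS2ST1 difference of 0.26 had an interval of -0.0035 to 0.52 (adjusted p = 0.523 by limma). NDST1 read 7.88 and 7.72 on induced and 7.53 and 7.38 on uninduced arrays, a difference of 0.35 with an interval of -0.07 to 0.76 (adjusted p = 0.628). EXT1 at 0.24, EXT2 at 0.13, HS3ST1 at -0.08 and SDC1 at -0.08 had adjusted p of 0.803 or more. With 2 arrays a group these intervals are wide, and a p above the threshold does not show that levels were equal.

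The differences in the 2 lines were then compared directly, U-H01 minus HBL-1. Of the 7 genes, 4 passed, 2 higher and 2 lower, where 32.5% of all genes did, 15.5% higher and 17% lower. The difference was larger in U-H01 by 0.93 ± 0.23 for EXT1 (SE, adjusted p = 0.0073 by limma) and by 0.95 ± 0.15 for HS2ST1 (adjusted p = 0.00028). It was lower in U-H01 by -0.84 ± 0.15 for EXT2 (adjusted p = 0.00088) and by -1.68 ± 0.23 for NDST1 (adjusted p = 0.00012). SDC1, at -0.31 with an interval of -0.60 to -0.01, did not pass (adjusted p = 0.113). EXT1 lost its call without replicate 2 of either HBL-1 group (0.84, adjusted p = 0.0844), and SULF2, at 0.29 with all arrays, passed without either of them (0.99, adjusted p = 0.0200) and turned to -0.41 (adjusted p = 0.340) without replicate 1 of either HBL-1 group.

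Without induction the lines differed in 4 of the 7 genes, 2 higher and 2 lower in U-H01, where 42.9% of all genes passed, 20.8% higher and 22.1% lower. EXT2 was higher in uninduced U-H01, at 8.54 ± 0.14 (SD, n = 4) against 7.46 ± 0.04 in uninduced HBL-1 (SD, n = 2), a difference of 1.08 ± 0.11 (SE, adjusted p = 3.3e-06 by limma). EXT1 was higher as well, at 7.23 ± 0.16 against 6.44 ± 0.10, with a difference of 0.79 ± 0.16 (SE, adjusted p = 0.0014) that lost its call without HBL-1 uninduced replicate 1 (0.71, adjusted p = 0.0670). SULF2 was 3.58-fold lower in uninduced U-H01, at 5.11 ± 0.18 against 6.95 ± 0.11 (adjusted p = 1.8e-05), and HS2ST1 1.70-fold lower, at 8.44 ± 0.09 against 9.21 ± 0.0026 (adjusted p = 5.1e-05). The SULF2 difference passed with any 1 array left out but moved to -1.14 without HBL-1 uninduced replicate 1 and to -2.54 without replicate 2 of that group, since the time point term then rests on the induced HBL-1 arrays. The groups of these 4 genes did not overlap, but neither did those of NDST1 and HS3ST1. The share of all genes without overlap was not counted. NDST1 at -0.32, HS3ST1 at 0.27 and SDC1 at 0.12 missed the threshold, at adjusted p of 0.145, 0.116 and 0.359. NDST1 (0.0134) and HS3ST1 (0.0330) had adjusted p under the threshold in a fit without the 4 U-H01 arrays labelled induced, an alternative chosen after seeing the data. SULF1, not tested here, was 6.90 higher in uninduced U-H01, a measured 120-fold.

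U-H01 labelled induced and HBL-1 induced arrays differed in 3 of the 7 genes, 1 higher and 2 lower in U-H01, where 38.6% of all genes passed, 18% higher and 20.6% lower. EXT1 was 3.30-fold higher in U-H01 (1.72 ± 0.16 SE, adjusted p = 2.3e-06 by limma), NDST1 3.99-fold lower (-2.00 ± 0.16, adjusted p = 6.6e-07) and SULF2 2.93-fold lower (-1.55 ± 0.22, adjusted p = 9.0e-05). The SULF2 difference depended on which HBL-1 array was kept, with -0.85 without induced replicate 2 and -2.25 without induced replicate 1, and passed either way. EXT2, at 0.24 with an interval of 0.01 to 0.48, did not pass (adjusted p = 0.104), but did without U-H01 labelled induced replicate 2 (0.32, adjusted p = 0.0304). HS2ST1, higher by 0.18 (interval -0.05 to 0.40), did not pass (adjusted p = 0.220). SULF1, not tested, differed by -0.19. These comparisons share arrays with those above and are not independent of them.

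**Figure D3:**
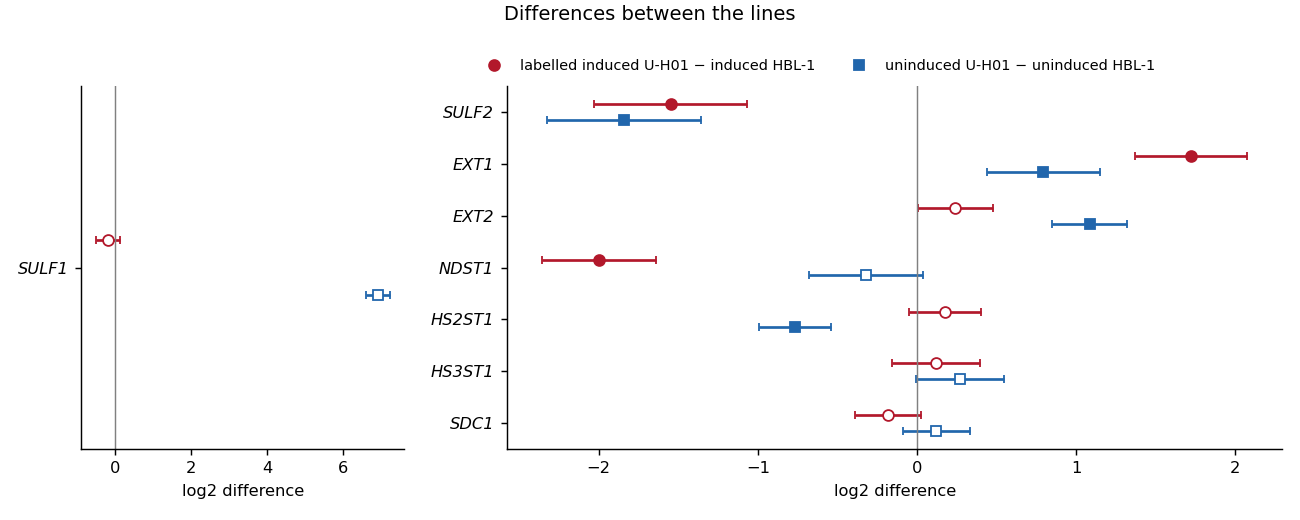
Log2 difference (horizontal axis) with its 95% interval between the lines, labelled induced U-H01 minus induced HBL-1 as circles and uninduced U-H01 minus uninduced HBL-1 as squares; filled symbols passed the test, and SULF1 was not tested. SULF1 is 6.90 higher in uninduced U-H01 and within 0.2 of HBL-1 in the arrays labelled induced, and SULF2 is lower in U-H01 in both.

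By level, SULF1 was in the order uninduced U-H01 at 10.8, then HBL-1 induced at 3.93, HBL-1 uninduced at 3.90 and U-H01 labelled induced at 3.73, and all arrays of the last 3 lay between 3.65 and 4.05. EXT1 was in the order U-H01 labelled induced at 8.39, U-H01 uninduced at 7.23, HBL-1 induced at 6.67 and HBL-1 uninduced at 6.44, where the lowest induced HBL-1 array, at 6.52, lay just above both uninduced ones, a difference that missed the threshold as given above. NDST1 was in the order HBL-1 induced at 7.80, HBL-1 uninduced at 7.45, U-H01 uninduced at 7.13 and U-H01 labelled induced at 5.80. HS2ST1 was in the order U-H01 labelled induced at 9.65, HBL-1 induced at 9.47, HBL-1 uninduced at 9.21 and U-H01 uninduced at 8.44, with the ranges of the first 2 overlapping. SDC1 and HS3ST1 varied least, with all 12 arrays between 6.21 and 6.86 for SDC1 and between 5.78 and 6.38 for HS3ST1.

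Among genes that make the linker by which chains are attached, and their sugar and sulfate donors, 6 of 15 measured were higher in U-H01 arrays labelled induced, 0 were lower and 9 did not pass, with a median of 0.16. The shares over all genes, against which this and the following list counts in U-H01 are to be read, were 22.4% higher and 23.5% lower, with a median of 0.03. UXS1, which makes UDP-xylose, averaged 10.4 in arrays labelled induced and 7.99 in uninduced ones, a difference of 2.38 ± 0.09 (SE, adjusted p = 4.0e-10 by limma). XYLT1, which attaches that xylose to the core protein, differed by 0.83, PXYLP1, a phosphatase acting on the linker xylose, by 0.996, and UGDH, which makes UDP-glucuronic acid, by 0.46.

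Other chain enzymes were split, with 4 of 15 higher and 4 lower (median 0.02). NDST4, a paralogue of NDST1, averaged 3.05 in arrays labelled induced and 5.46 in uninduced ones (-2.41 ± 0.10 SE, adjusted p = 4.5e-10 by limma). HS6ST3, which adds the 6-O-sulfate that SULF enzymes remove, differed by -2.31 ± 0.15 (adjusted p = 5.2e-08), at 4.73 in arrays labelled induced against 7.04 in uninduced ones. GLCE, the epimerase that turns glucuronic into iduronic acid, was higher by 1.20, at 8.03 against 6.83. EXTL2, an EXT-like transferase, differed by -0.65.

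Of 13 other core proteins, 1 was higher and 4 lower in U-H01 arrays labelled induced (median -0.05). CD44, some isoforms of which carry heparan sulfate, averaged 5.94 in arrays labelled induced and 10.1 in uninduced ones, 17.4-fold lower (adjusted p = 6.1e-10 by limma). SDC3, a syndecan best known from the nervous system, averaged 5.20 in arrays labelled induced and 7.29 in uninduced ones (-2.09 ± 0.17 SE). The matrix protein gene AGRN was lower by 0.50 on the log2 scale, and TGFBR3, the TGF-beta co-receptor betaglycan, was higher by 0.84. SDC2 averaged 4.57 in arrays labelled induced and 4.66 in uninduced ones and did not pass (adjusted p = 0.359). Among 9 measured genes listed under lysosomal breakdown of the chain, 2 were higher and 4 lower (median -0.10). The sulfatases SGSH at -1.38 and IDS at -1.04 and the acetyltransferase HGSNAT at -0.70 were lower, and the glucuronidase GUSB was higher by 0.88.

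**Figure D4:**
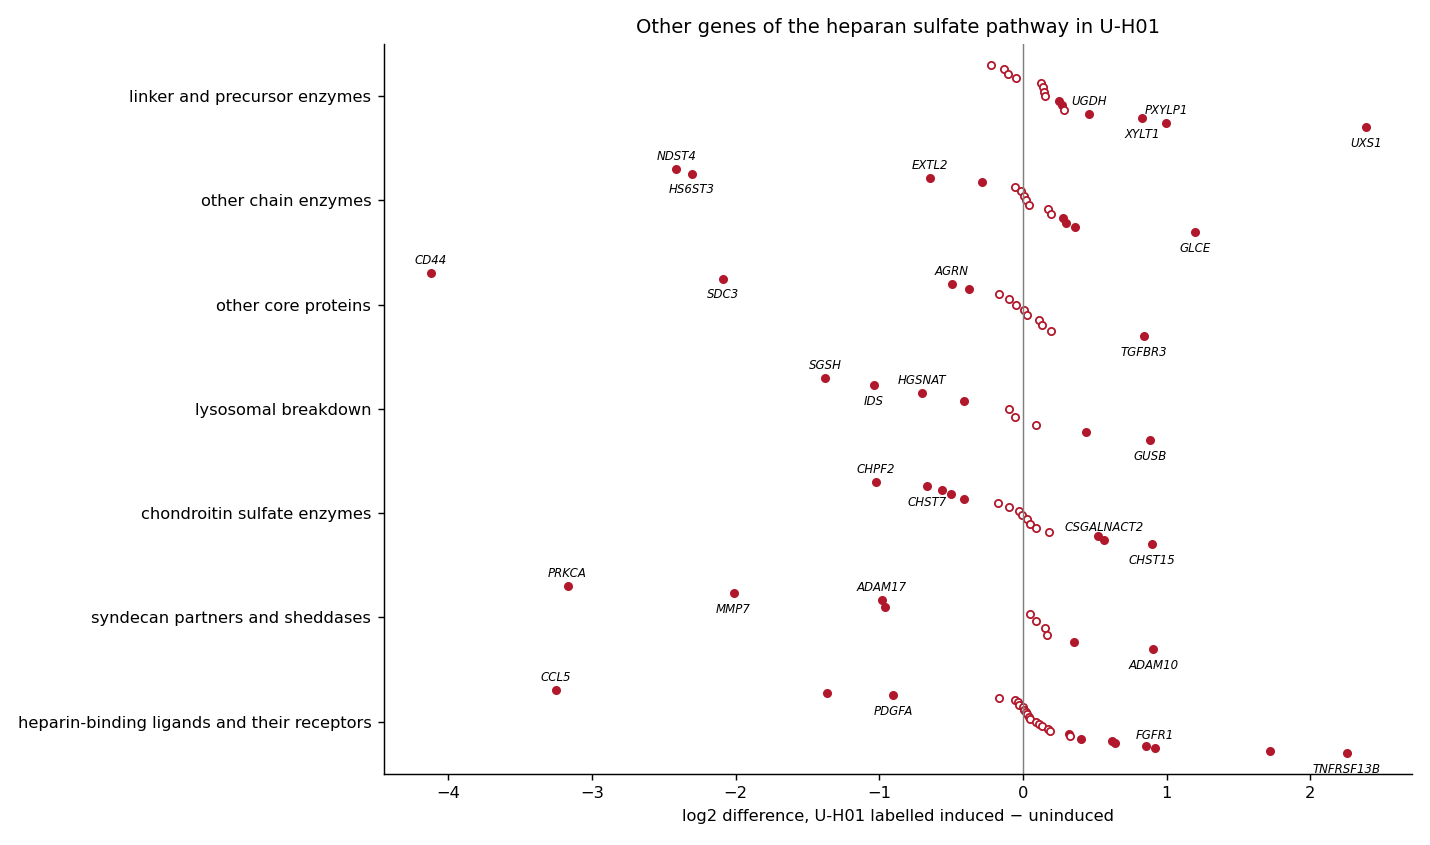
Log2 difference (horizontal axis) in U-H01, labelled induced minus uninduced, for each measured gene of 7 further lists (rows, genes in order of their difference); filled points passed the test and the 4 named per list have the smallest p. CD44 lies farthest left, at -4.12, and UXS1 farthest right, at 2.38.

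Chondroitin sulfate, the sister chain built on the same linker, had 3 of 16 enzymes higher and 5 lower (median -0.02). CHPF2, a chondroitin polymerising factor, differed by -1.02 and the sulfotransferase CHST7 by -0.67, while the sulfotransferase CHST15 was higher by 0.90 and the transferase CSGALNACT2 by 0.56. Of 10 syndecan partners and sheddases, 2 were higher and 4 lower (median 0.07). PRKCA, a kinase that binds the syndecan-4 tail, averaged 5.81 in arrays labelled induced and 8.98 in uninduced ones (-3.17 ± 0.11 SE, adjusted p = 1.7e-10 by limma). MMP7, a protease that sheds syndecan-1, differed by -2.01, ADAM17 by -0.98 and ADAM10 by 0.91.

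Among 27 heparin-binding ligands and their receptors, 8 were higher, 3 lower and 16 did not pass in U-H01 (median 0.09), where 22.4% of all genes were higher and 23.5% lower. CCL5, a chemokine presented on heparan sulfate, averaged 5.96 in arrays labelled induced and 9.21 in uninduced ones, 9.52-fold lower (adjusted p = 1.2e-11 by limma). PDGFA differed by -0.90, the fibroblast growth factor receptor gene FGFR1 by 0.92, and TNFRSF13B, whose product TACI binds syndecans, by 2.25 ± 0.08 (SE, adjusted p = 9.1e-11). The genes named as called in U-H01 from these 7 lists kept their calls under every alternative in which they were tested. They were named for their small p in this same comparison, and the alternatives reuse its arrays. Kept calls were therefore likely from the start and are no separate evidence.

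In HBL-1, 0 of the linker, other chain, lysosomal, chondroitin and syndecan partner genes passed between induced and uninduced arrays by limma, and 3 passed in the other 2 lists, where 0.608% of all genes passed. TGFBR3 averaged 7.31 in induced and 8.49 in uninduced arrays, lower by 1.18 ± 0.13 (SE, adjusted p = 0.0018). CXCR4, a chemokine receptor, averaged 9.36 in induced and 8.36 in uninduced arrays (adjusted p = 0.0118). TNFRSF13B averaged 10.0 in induced and 10.6 in uninduced arrays (-0.65 ± 0.11 SE, adjusted p = 0.0174). Each of the 3 lost its call without any 1 of the 4 HBL-1 arrays, with adjusted p up to 0.174 for TGFBR3, 0.434 for CXCR4 and 0.434 for TNFRSF13B, and the last 2 also with all probe sets tested (0.0628 and 0.0570).

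Between the uninduced lines the lists differed in both directions, with uninduced U-H01 given against uninduced HBL-1, where 20.8% of all genes were higher and 22.1% lower. XYLT1 was lower in U-H01 at 5.66 against 8.36 (-2.70 ± 0.14 SE, adjusted p = 6.8e-09 by limma), and 6 of 15 linker and donor genes were higher and 3 lower. Of the other chain enzymes 4 of 15 were higher and 0 lower: GLCE by 1.72, HS6ST3 by 2.28, NDST4 by 2.23 and EXTL2 by 0.47. SDC3 was higher by 2.28 and TGFBR3 differed by -1.14 among 13 core proteins, of which 2 were higher and 2 lower. Of 9 lysosomal genes 3 were higher, HGSNAT by 1.43, IDS by 0.61 and IDUA by 0.59, and 2 were lower. The lower ones were HPSE, the heparanase that cuts the chain, at 4.87 against 5.46 (adjusted p = 0.00088 by limma), and GUSB at 8.96 against 9.40.

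Of 16 chondroitin sulfate enzymes 7 were higher and 0 lower in uninduced U-H01, against 20.8% and 22.1% of all genes, led by CHST7 at 1.77 and CHST11 at 1.55. TIAM1, a syndecan-associated exchange factor, was lower by 2.22 on the log2 scale and SDCBP, the adaptor syntenin, by 1.34, and ADAM17 was higher by 1.48. MET, the receptor of hepatocyte growth factor, was higher by 3.70 ± 0.13 (SE, adjusted p = 2.1e-10 by limma), at 9.00 against 5.30. CCL5 was higher by 3.56, CXCR4 by 1.93 and TNFRSF13B differed by -2.72. The calls of CD44 (-0.71) and GPC5 (0.31) were lost without either uninduced HBL-1 array, with adjusted p up to 0.222 and 0.144, that of EXTL2 without uninduced HBL-1 replicate 1 (0.274) and that of XYLT2 (0.53) without replicate 2 (0.0783).

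The genes whose levels over the 12 arrays were most like those of SULF1 by Pearson correlation were CEP15, MAOA, RPS6KA6, PLCL1 and FCER1A, each at 0.999. MAOA, a monoamine oxidase, averaged 4.12 on U-H01 arrays labelled induced and 11.1 on uninduced ones, and FCER1A, a chain of the IgE receptor, 3.72 and 9.72. In HBL-1 both averaged under 4.4 in either group. Such a correlation over arrays that fall in separate groups describes which group is high. By the labels, several of the arrays come from the same transduced population, so they are not independent. Among the other measured genes that the rule names, the correlation with SULF1 over 12 arrays was 0.93 for EXT2, -0.96 for HS2ST1 and between -0.48 and 0.72 for the rest. For the genes of the further lists it is not given here.

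**Figure D5:**
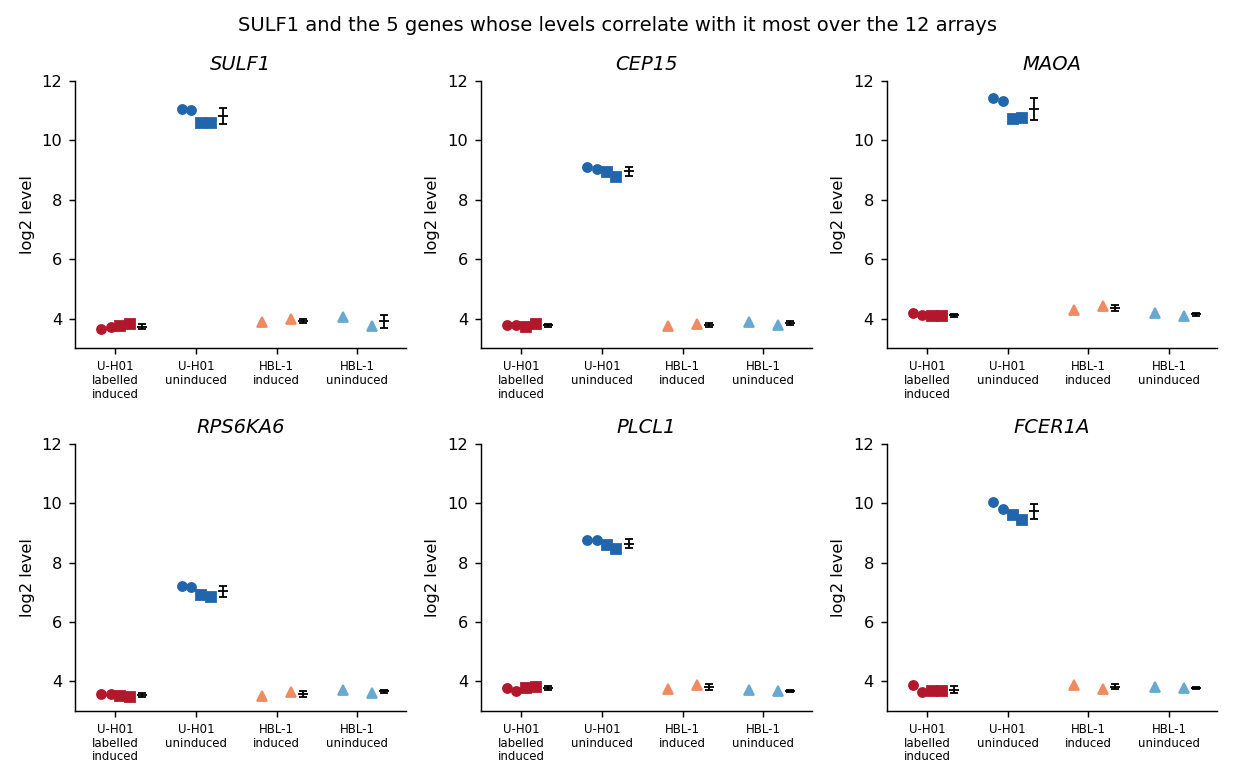
Deposited log2 level (vertical axis) of SULF1 and the 5 genes with the highest Pearson correlation with it over the 12 arrays, by group; symbols and bars are as in the plot of levels by array. All 6 genes are high on the 4 uninduced U-H01 arrays and under 4.5 on the other 8.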

How the data were processed

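The authors deposited log2 expression values for 33297 probe sets on 12 arrays, and the submitters' processing notes name RMA and Partek, with versions not given in the sources used here. RMA brings arrays to like distributions, so a shift of all genes would be hidden, and low levels near background understate a fold. Array medians ran from 5.79 to 5.88, and 0 pairs of arrays held identical values. The platform annotation pairs 19460 probe sets with 1 symbol and 1754 with several. Where a gene had several, its brightest probe set on average was used, giving 18417 genes tested. Entrez identifiers matched to RefSeq GRCh38.p14 changed 0 symbols. The number of arrays limits the precision.

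Groups were taken from the sample titles. All comparisons came from 1 linear model in limma 3.58.1 under R 4.3.3 (lmFit, eBayes), with population, time point within each line and induction within each line as 7 terms, leaving 5 residual degrees of freedom, or 4 where B1 and B2 had induction terms of their own. Two-sided p-values had a Benjamini-Hochberg adjustment over all genes tested, with calls under 0.05. The labels do not say whether the arrays of 1 group are separate cultures. The p-values then reflect array-to-array spread alone, and that spread may be technical. The model was tested on simulated data with independent noise on each array. It recovered 63 of 67 2-fold changes in U-H01 and 52 of 67 in HBL-1. Of 1.41-fold changes it recovered 41 of 67 in U-H01 and 15 of 67 in HBL-1, so most of that size were missed in HBL-1. Arrays that share a culture were not simulated. In the simulation 18217 of 18417 genes were left unchanged, while 45.8% of genes passed between the real U-H01 labels. Recovery in the real U-H01 comparison may therefore differ from these counts. The labels' protocols pair the induced and uninduced arrays, as portions of the same transduced population. Within a pair, the deviations from the group mean correlated at -0.03 to 0.14.

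The genes described and the further lists were chosen with earlier results of these data known. The rule for named genes takes the 8 measured genes in every comparison, REL and RELB, the 5 genes most like SULF1, and up to 4 genes of each list, those with the smallest p among those that passed, in U-H01, in HBL-1 and between the uninduced lines. Marker genes are named as checks. Plots used matplotlib 3.10.9 (Python 3.11.15).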

Additional observations from a re-analysis of the deposited data

Results flagged for a closer look

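The difference between induced and uninduced arrays was unequal in the 2 lines for 4 genes, by the test of U-H01 minus HBL-1 in limma. It was 0.93 for EXT1, -0.84 for EXT2, -1.68 for NDST1 and 0.95 for HS2ST1. EXT1 lost this call without replicate 2 of either HBL-1 group.

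In 100 groups of 4 U-H01 arrays, 1 for each gene named and label, 5 held an array farther from the rest than Dixon's 95% critical value allows, where chance gives about 1 in 20. NDST4 was at 5.15 on U-H01 uninduced replicate 4 and PRKCA at 8.69 on the same array, each below the other uninduced arrays. EXTL2 was at 6.04 and IDS at 8.51 on U-H01 labelled induced replicate 4, each above the others of that group. SLC35B2, which was called only between the uninduced lines, was at 7.74 on U-H01 labelled induced replicate 1. None of the 8 genes described in full had such an array.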

How the results depend on the processing

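Over the alternatives run, the count of the described genes past the threshold was 5 to 6 in U-H01, 0 in HBL-1, 3 to 6 between the uninduced lines, 2 to 4 between the arrays labelled induced, 0 between B2 and B1 and 4 for the difference between lines. These were another quantile normalization, centring on array medians, trend and robust options, each line fitted alone, no time point term, probe sets above the median level, all probe sets tested, leaving out any 1 array, which leaves an HBL-1 group with 1 array whose spread is assumed to be that of the others, and, chosen after seeing the data, leaving out the 4 U-H01 arrays of 1 label. Comparisons between lines had no fit of 1 line alone. SULF2 was not among the probe sets above the median level, which gave the count of 2 between the arrays labelled induced. In that comparison SULF2 kept its call in all 19 alternatives that tested it. With the replicate block the counts were 5 in U-H01 and 0 in HBL-1, and the block changed no call of a named gene. No value was had from other probe sets, since each gene has 1. The direction of some uncalled differences depended on 1 array. With 1 array left out, SULF2 ran from -0.056 to 0.19 in U-H01, from -0.93 to 0.47 in HBL-1 and from -0.41 to 0.99 for the difference between lines. SULF1 ran from -0.17 to 0.22 in HBL-1 and from -0.39 to 0.00084 between the lines' arrays labelled induced, and HS3ST1 from -0.21 to 0.28 between B2 and B1. The counts over all genes moved more. In U-H01, 12781 of 33297 probe sets passed with all of them tested, against 8439 of 18417 genes. Here and below, counts with all probe sets tested are of probe sets, so they cannot be set directly against counts of genes. In HBL-1, where 112 passed, 945 did with that line fitted alone, 58 with all probe sets tested, 322 without the 4 U-H01 arrays labelled induced, and 8 to 149 with 1 array left out. Between B2 and B1, where 112 passed too, 222 did with trend and robust options, 44 with U-H01 fitted alone, 3 with all probe sets tested and 20 to 140 with 1 array left out. The cause was not tested.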
